A study of Mus musculus with 12 samples.

Results

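The genes described here are those whose products start, copy and divide the genome. They were chosen by symbol alone, as all genes in the deposited tables whose symbol begins with Cdc and a digit (not Cdc42), Cdk and a digit, Ccna, Ccnb, Ccnd, Ccne, Mcm and a digit, Orc, Pola, Pold, Pole, Rfc, E2f, Aurk, Plk or Bub. This gave 95 of the 12098 genes listed. Their promoter CpG methylation was read by bisulfite sequencing of size-selected fragments that MspI cuts out at CCGG, where an unmethylated cytosine is read as thymine. Colonic epithelial cells of C57BL/6 mice on a chow diet were the source. In 3 Dnmt3b-induced mice the de novo DNA methyltransferase Dnmt3b was switched on with 0.5 g/l doxycycline in the drinking water over 3 months, with fresh water every 3 days. The 3 control mice received regular drinking water. Going by the library numbers, each mouse was taken to have given a library of short fragments (40 to 120 nt) and one of long fragments (120 to 220 nt). The labels name neither the transgene, the cells that drive it, nor whether control mice carried it, and give neither age nor sex. The effect of doxycycline and that of Dnmt3b cannot be told apart.

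The cell cycle is driven by cyclin-dependent kinases, which are switched on by cyclins made at set stages. In G1 the origin recognition complex and Cdc6 load the MCM helicase on origins, E2F factors turn on the genes of DNA synthesis, and the Cdc7 and S-phase kinases then start copying by the polymerases alpha, delta and epsilon with their clamp loader RFC. Aurora and Polo kinases, Bub proteins and Cdc20 direct mitosis. The colon epithelium renews itself all the time from dividing cells in the crypts, and many promoters of these genes lie in CpG islands, which are unmethylated in normal tissue.

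Promoter windows of 6 members show the contrast that the values below describe: 3 members with the largest rises and 3 that stayed near 0. They are RefSeq sequences of build GRCm38.p6, from 250 bases before to 50 bases after a gene start, printed 5′ to 3′ on the strand of the gene with every CpG in capitals. No source used here gives the authors' own promoter window or build, so the measured CpGs need not be these.
Cdk5r2: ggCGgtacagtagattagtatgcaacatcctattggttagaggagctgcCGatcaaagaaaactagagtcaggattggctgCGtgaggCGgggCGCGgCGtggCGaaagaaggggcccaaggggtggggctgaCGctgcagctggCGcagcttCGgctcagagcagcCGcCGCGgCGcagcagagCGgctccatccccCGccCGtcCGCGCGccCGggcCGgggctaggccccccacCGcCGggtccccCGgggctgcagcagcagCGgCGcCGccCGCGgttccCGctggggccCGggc
Ccna1: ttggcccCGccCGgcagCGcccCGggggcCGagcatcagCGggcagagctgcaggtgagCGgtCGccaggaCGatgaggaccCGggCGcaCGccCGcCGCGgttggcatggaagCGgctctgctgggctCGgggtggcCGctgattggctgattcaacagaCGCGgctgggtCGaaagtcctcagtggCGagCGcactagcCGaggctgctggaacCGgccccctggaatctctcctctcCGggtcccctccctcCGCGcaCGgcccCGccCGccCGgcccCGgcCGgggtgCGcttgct
Plk5: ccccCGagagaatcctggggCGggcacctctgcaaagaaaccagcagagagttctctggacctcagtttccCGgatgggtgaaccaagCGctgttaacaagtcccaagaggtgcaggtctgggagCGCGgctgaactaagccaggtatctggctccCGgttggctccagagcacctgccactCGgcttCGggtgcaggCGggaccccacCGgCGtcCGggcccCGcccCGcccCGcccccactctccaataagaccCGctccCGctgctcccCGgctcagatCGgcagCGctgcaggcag
Cdc34: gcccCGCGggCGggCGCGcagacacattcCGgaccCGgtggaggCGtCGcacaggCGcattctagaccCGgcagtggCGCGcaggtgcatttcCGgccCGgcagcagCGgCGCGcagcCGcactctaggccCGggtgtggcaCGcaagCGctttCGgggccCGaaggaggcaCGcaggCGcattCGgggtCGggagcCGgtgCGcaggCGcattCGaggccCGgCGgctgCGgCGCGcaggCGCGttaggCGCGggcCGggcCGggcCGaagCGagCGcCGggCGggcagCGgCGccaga
Cdc25a: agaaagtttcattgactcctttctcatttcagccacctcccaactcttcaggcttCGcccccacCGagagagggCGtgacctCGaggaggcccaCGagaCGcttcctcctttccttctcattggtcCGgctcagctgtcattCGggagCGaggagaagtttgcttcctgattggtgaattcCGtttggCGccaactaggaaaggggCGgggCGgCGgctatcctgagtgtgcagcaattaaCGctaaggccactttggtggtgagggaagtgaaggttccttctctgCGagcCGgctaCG
Mcm7: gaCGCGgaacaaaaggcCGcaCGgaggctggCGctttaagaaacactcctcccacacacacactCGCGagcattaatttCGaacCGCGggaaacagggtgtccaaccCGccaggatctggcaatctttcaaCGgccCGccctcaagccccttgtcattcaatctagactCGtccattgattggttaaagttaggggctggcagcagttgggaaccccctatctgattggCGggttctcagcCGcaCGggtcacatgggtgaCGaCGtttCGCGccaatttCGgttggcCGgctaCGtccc
The first 3 windows lie at chr1:74854779-74855078 on the plus strand, chr3:55055006-55055305 on the minus strand and chr10:80356209-80356508 on the plus strand. They hold 33, 35 and 21 CpGs. Cdc34 at chr10:79681945-79682244 (plus strand) holds 50 CpGs, Cdc25a at chr9:109875329-109875628 (plus strand) 18, and Mcm7 at chr5:138171834-138172133 (minus strand), 1 of 2 windows of that gene, 24. Windows both with many and with few CpGs thus stand on either side of the contrast.

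Each value is a gene's mean CpG methylation in percent, and each difference, in percentage points, is induced minus control. Libraries of short fragments listed 10358 to 10838 genes and those of long fragments 7278 to 8108. How many reads lie behind a value is unknown, also for values of 0%. Mean levels over the listed genes were 16.8% to 19.4% in induced and 4.53% to 5.34% in control mice among short fragments, and 19.6% to 22.0% and 5.76% to 6.52% among long fragments. One mouse stood apart: the median of X-linked genes was near 0 in control mouse 2, which touches a pair of members described below. Epithelial marker genes had medians of 0.17% in induced and 0.258% in control mice over 8 of 17 markers tested among short fragments, and of 0.323% and 0.157% over 9 among long fragments, where Krt18 stood out at 30.2% in induced and 22.8% in control mice. Those of stromal, muscle and endothelial cells had medians of 65.4% in induced and 3.96% in control mice over 7 of 17 markers tested among short fragments. With limma 6 of these 7 rose, where 27.6% of all genes did. Among long fragments all 3 tested rose, where 23.2% of all genes did, with medians of 65.7% in induced and 1.18% in control mice. Only 1 of 18 immune markers was tested in each fraction, so the share of such cells could not be read from these levels. The marker tested among short fragments differed by -0.26 points and did not pass. The marker tested among long fragments rose by 61.07 points (limma), with 73.65% in induced and 12.58% in control mice. A level averages over all cells of a library, so a change in the share of cell types and a change per cell cannot be told apart.

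Most cell cycle and replication promoters kept low methylation in the induced mice. Of the 95 genes, 80 were present in all 6 short-fragment libraries, 53 in all 6 long-fragment libraries and 43 in all 12, while 5 were complete in neither fraction and were not tested. Among short fragments 11 of 80 rose (13.8%), where 27.6% of all 10027 genes tested did (limma, Benjamini-Hochberg adjusted p under 0.05 over all genes of the fraction). Among long fragments 3 of 53 rose (5.66%), where 23.2% of all 6127 genes did. No member fell past the threshold with limma in either fraction. At an unadjusted p under 0.05 there was 1 lower member among short and 0 among long fragments, with 29 of 10027 and 2 of 6127 genes. Past the adjusted threshold 0.0798% and 0.0163% of all genes were called lower. The median difference was 0.20 points over the members and 0.50 points over all genes among short fragments, and 0.17 and 0.94 points among long fragments. The difference between the members' share and that of all genes was not tested.

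The size of the rises was small for many of them. A rise of at least 10 points past the threshold was seen in 6 of 80 members among short fragments, against 23.0% of all genes, and in 2 of 53 among long fragments, against 21.2%. A rise of at least 50 points was seen in 2 members of each fraction, against 13.4% and 13.5% of all genes. Of the 75 members under 10% in control mice among short fragments, 68 (90.7%) were under 10% in induced mice too, as were 6859 of 9052 such genes in all (75.8%). Among long fragments these were 47 of 51 members (92.2%) and 3848 of 5347 genes (71.97%). In 44 members among short and 30 among long fragments every library lay under 1% (55.0% and 56.6%), against 41.9% and 39.5% of all genes. Induced values lay above all control values in 22 of 80 members (27.5%) and in 10 of 53 (18.9%), with 39.5% and 38.2% over all genes. They lay below all control values in 2 of 80 and in 0 of 53, with 0.908% and 0.277% over all genes.

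**Figure D1:**
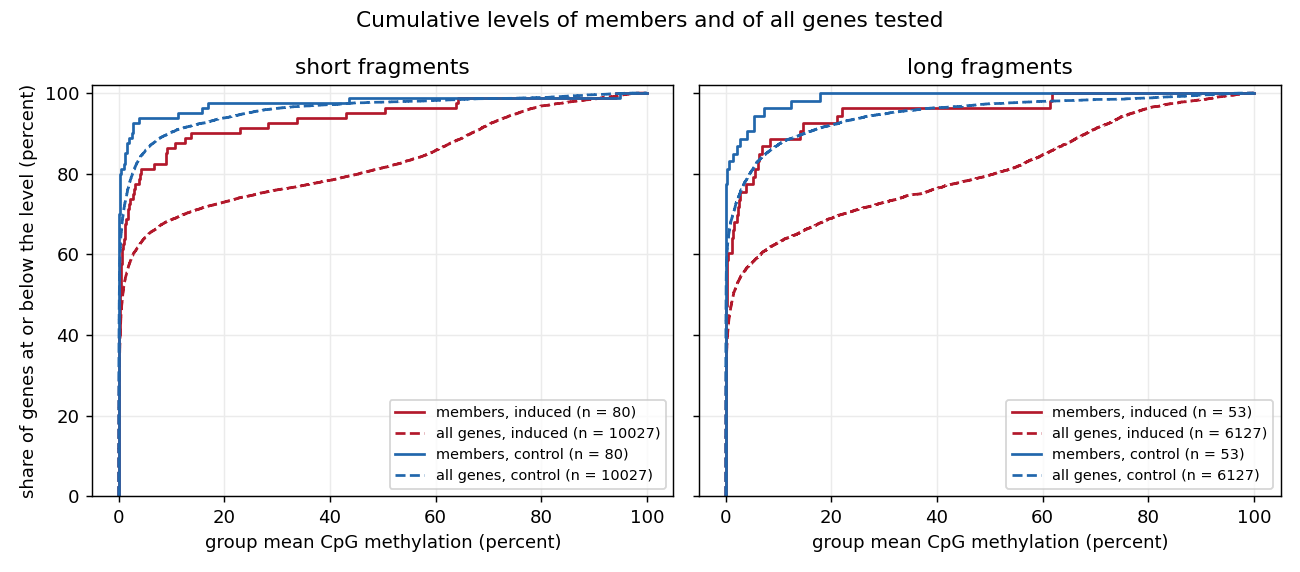
Cumulative share of genes (y axis, percent) at or below a group mean CpG methylation level (x axis, percent), for the members (solid) and all genes tested (dashed) in induced (red) and control (blue) mice, in each fraction. The induced curve of the members lies above that of all genes: 86.3% of members and 68.6% of all genes were under 10% among short fragments, and 88.7% and 63.0% among long fragments.

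Most origin licensing genes kept low levels. None of the 4 origin recognition complex genes tested per fraction passed with limma, nor did any of the 10 Mcm genes among short and 6 among long fragments pass as higher. Over all genes 27.6% rose among short and 23.2% among long fragments, and the difference from these shares was not tested. The Mcm symbols also take Mcm3ap and Mcm8, described below, which are not licensing genes. Their induced means were 42.95% and 8.89% among short fragments. At an unadjusted p under 0.05 no gene of either class was higher and 1 Mcm gene was lower. Mcm2, Mcm3, Mcm4, Mcm5, Mcm6 and Mcm7 encode the ring of the replicative helicase, and every one of their values lay between 0% and 2.78%. Mcm5 did not pass with all mice, but did without induced mouse 1, by 2.72 points among short and 0.34 points among long fragments (limma adjusted p = 0.00021 and 0.0378). Mcm3 and Mcm7 were at 0% in all 6 short-fragment libraries, and Mcm7 in all 6 long-fragment libraries too. Mcm10, which helps to fire the loaded helicase, was likewise at 0% in all 6 short-fragment libraries. Mcm4 had 0% in each of the 3 induced mice, against 0.44%, 0.27% and 0.78% in control mice, among short fragments. The groups did not overlap and the difference was -0.50 points, which did not pass (limma adjusted p = 0.0790). Mcm4 had the same values in every library of a fraction as its neighbour Prkdc, so the level belongs to a region that both genes share.

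Orc1l, the largest subunit of the origin recognition complex (now Orc1), was the exception in size. Among long fragments it had 0.76%, 9.40% and 10.7% in induced mice, against 0.06%, 0% and 0.14% in control mice. Induced mouse 1 was much lower than the other induced mice and still above the controls. The difference of 6.89 points did not pass (limma adjusted p = 0.223), and without induced mouse 1 it was 9.99 points (limma adjusted p = 0.00188). Among short fragments Orc1l had 0.68%, 0.09% and 0% in induced mice, against 0% in each control mouse. Orc2l had 6.25%, 0% and 1.88% in induced mice, against 3.85%, 0% and 0% in control mice, among short fragments, so the groups overlapped. In the long fraction Orc2l had 0.09%, 3.60% and 2.53% in induced mice, against 0% in each control mouse, without overlap. The difference of 2.07 points did not pass (limma adjusted p = 0.276), and without induced mouse 1 it was 3.07 points (limma adjusted p = 0.0143).

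Cdc7, the kinase that activates the loaded helicase, rose slightly. It had 5.33%, 4.38% and 2.47% in induced mice, against 0.70%, 0.29% and 0% in control mice, among short fragments, with no overlap. The difference was 3.73 points (SE 0.817, limma adjusted p = 0.0305). The call was lost without any one of control mice 1, 2 and 3, and also without induced mouse 1 or induced mouse 2 (adjusted p = 0.0922, 0.108, 0.115, 0.0522 and 0.103). Long-fragment libraries had Cdc7 at 0%, 0% and 1.63% in induced mice, against 0% in both control libraries that listed it. It was not tested there. Cdc6, which loads the helicase, had 7.14%, 5.90% and 7.14% in induced mice, against 4.76%, 0% and 0% in control mice, and did not pass (limma adjusted p = 0.0821), except without control mouse 1 (adjusted p = 0.00694). Cdc45l (now Cdc45), a partner of the helicase at the fork, had 0%, 5.21% and 1.23% in induced mice, against 0% in each control mouse, and did not pass either (limma adjusted p = 0.443).

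Of 8 genes of DNA polymerase subunits and their interacting proteins tested among short fragments 1 rose (limma), where 27.6% of all genes did. Of 4 among long fragments 0 rose, where 23.2% of all genes did. At an unadjusted p under 0.05 these were 2 and 0. Pold2, the second subunit of polymerase delta, had 29.2%, 26.8% and 29.0% in the induced mice, against 0% in all 3 control mice, among short fragments. The induced mice were closely alike, at 28.3% ± 1.37 (SD, n = 3), and far above the controls. The difference was 28.34 points (SE 0.747, limma adjusted p = 0.000114). Leaving out any 1 library kept the call, with differences of 27.9 to 29.1 points. Pold2 was listed in no long-fragment library. The other polymerase delta genes did not pass. Pold1, the catalytic subunit, had 2.78%, 21.1% and 17.1% in induced mice, against 12.8%, 23.3% and 11.1% in control mice, and Pold3 stayed under 0.30% in every library of both fractions. Pole, the catalytic subunit of polymerase epsilon, stayed under 0.25% in the short-fragment libraries, and its values were those of its neighbour Pxmp2.

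Pola1, the catalytic subunit of polymerase alpha, lies on the X chromosome. It had 62.0%, 58.6% and 30.5% in induced mice, against 22.5%, 0% and 28.1% in control mice, among short fragments. The lowest induced mouse was only just above the highest control mouse, and control mouse 2 was at 0%. The difference of 33.48 points did not pass (SE 12.4, limma adjusted p = 0.145), and without control mouse 2 it was 25.1 points. The median over X-linked genes in the same libraries was 55.7%, 51.7% and 48.9% in induced mice, against 34.5%, 0.065% and 33.2% in control mice. Control mouse 2 thus had the lowest value for Pola1 and for the X chromosome, and the part of this in the difference was not tested. The other X-linked member, Ccnb3, a B-type cyclin known from meiosis, was near full methylation throughout. It had 91.9%, 93.4% and 96.8% in induced mice, against 91.3%, 96.5% and 96.7% in control mice, control mouse 2 included (limma adjusted p = 0.845).

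**Figure D2:**
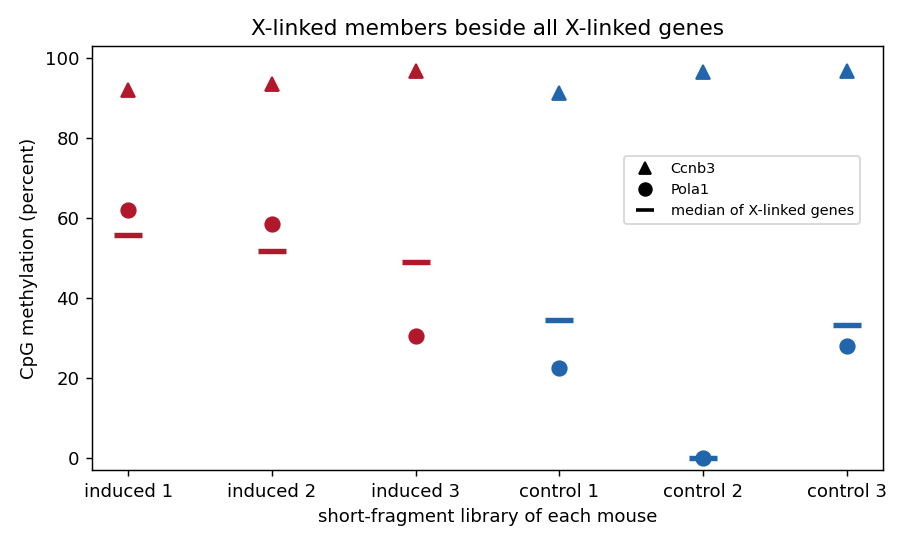
CpG methylation (y axis, percent) of the X-linked members Pola1 (circles) and Ccnb3 (triangles) and the median of X-linked genes (bars) in each short-fragment library, induced mice in red and control mice in blue. Pola1 is at 0% in control mouse 2, where the X-linked median is 0.065%, while Ccnb3 is above 90% in all 6 mice.

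None of the clamp loader genes passed with limma, and none did at an unadjusted p under 0.05, with 3 tested among short and 2 among long fragments. Over all genes 27.6% and 23.2% rose past the adjusted threshold, and so few genes cannot be set against these shares. RFC opens the sliding clamp that holds polymerases on DNA. Rfc1, Rfc2 and Rfc3 stayed at or under 1.25% in each short-fragment library. Rfc5 had intermediate levels in both groups among long fragments, with 23.5%, 6.25% and 12.5% in induced mice, against 8.89%, 11.8% and 16.7% in control mice. The groups overlapped (limma adjusted p = 0.883). Among short fragments Rfc5 was at 0% in all 5 libraries that listed it.

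Among E2F genes 3 of 8 rose in the short fraction (37.5%, with 27.6% of all genes), all by less than 10 points. E2f4, a repressor of cell cycle genes in resting cells, had 9.99%, 10.8% and 11.3% in induced mice, against 2.34%, 3.47% and 2.18% in control mice. Both groups were tight and well apart, with a difference of 8.03 points (SE 0.523, limma adjusted p = 0.00069). E2f6, a repressor that acts with Polycomb proteins, had 11.2%, 7.69% and 8.50% in induced mice, against 3.95%, 3.32% and 4.31% in control mice. Its difference was 5.26 points (SE 1.03, limma adjusted p = 0.0210). By contrast, E2f6 was at 0% in every long-fragment library that listed it, and was not tested there. The call of E2f6 was lost without any one of control mice 1, 2 and 3, or induced mouse 3 (adjusted p = 0.0816, 0.0855, 0.0709 and 0.0570), and with a variance trend (adjusted p = 0.0563).

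E2f7, an atypical repressor of the family, had 1.44%, 1.36% and 0.90% in induced mice, against 0.05%, 0.02% and 0.01% in control mice. The difference was 1.21 points (SE 0.165, limma adjusted p = 0.00611), past the threshold at a level that stayed near 0. Its calls and those of E2f4 remained whichever library was left out. Long-fragment libraries had E2f7 at 0% in each induced mouse, and at 0.16% and 0% in control mice 2 and 3. It was not tested there. E2f1, E2f2, E2f3 and E2f5, which include the activators of S-phase genes, stayed under 1% in every short-fragment library. E2f8, the other atypical repressor, had 8.59%, 3.88% and 6.43% in induced mice, against 3.05%, 2.37% and 2.66% in control mice, among long fragments. The groups did not overlap, but the difference of 3.61 points did not pass (limma adjusted p = 0.150). Without induced mouse 2 it was 4.82 points (limma adjusted p = 0.0338). In the short fraction E2f8 stayed at or under 0.32%.

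Of the cyclins only Ccna1 passed, 1 of 9 tested among short and 1 of 7 among long fragments, where 27.6% and 23.2% of all genes rose. Ccna1 encodes the A-type cyclin of the germ line, which acts in male meiosis. Among short fragments it had 38.7%, 19.1% and 43.4% in induced mice, against 0%, 0.11% and 0% in control mice. Among long fragments it had 61.0%, 57.5% and 65.6% in induced mice, against 3.74%, 7.09% and 5.46% in control mice. Every induced value was far above every control value in both fractions. The group means were 33.7% ± 12.9 in induced and 0.0367% ± 0.0635 in control mice among short fragments, and 61.4% ± 4.08 and 5.43% ± 1.68 among long fragments (SD, n = 3 each). The differences were 33.68 points (SE 7.04, limma adjusted p = 0.0260) and 55.94 points (SE 2.42, limma adjusted p = 0.000623). The short-fragment call was lost without any one of control mice 1, 2 and 3, and also without induced mouse 1 or induced mouse 3 (adjusted p = 0.0975, 0.0946, 0.0962, 0.0798 and 0.0640), with differences of 28.8 to 41.01 points over all omissions.

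None of the cyclins of dividing somatic cells passed with all mice. Ccna2, the A-type cyclin of S phase and mitosis, had 2.15%, 0.84% and 2.90% in induced mice, against 0%, 0% and 0.05% in control mice, among short fragments. The groups did not overlap, but the difference of 1.95 points did not pass (limma adjusted p = 0.0756). It passed without induced mouse 2 (adjusted p = 0.00824) and on the arcsine square root scale (adjusted p = 0.0108). Ccnd1, a D-type cyclin that answers growth signals, stayed at or under 0.58% among short fragments. Among long fragments it had 0%, 4.47% and 0.29% in induced mice, against 0% in each control mouse. Ccnd2, another D-type cyclin, had 8.03%, 0% and 0.22% in induced mice, against 0%, 0.31% and 0.20% in control mice, in the long fraction, where induced mouse 1 alone was high. Ccnb2, a mitotic B-type cyclin, had 4.17%, 1.30% and 0% in induced mice, against 0% in each control mouse, among short fragments. Ccne1, which drives entry into S phase, had 3.70%, 4.09% and 3.71% in induced mice, against 2.39%, 1.41% and 4.48% in control mice, among short fragments, and the groups overlapped. Without control mouse 3 its difference of 1.93 points passed (limma adjusted p = 0.0458).

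Of 11 genes with a Cdk symbol tested per fraction 2 rose in each (limma), and Cdk5r2 did so in both. The share was 18.2% in each fraction, with 27.6% and 23.2% over all genes. Cdk5r2 encodes p39, which activates Cdk5 in neurons and is not a part of the division cycle. Among short fragments it had 55.8%, 63.1% and 73.7% in induced mice, against 1.44%, 1.27% and 2.19% in control mice. Among long fragments it had 53.1%, 59.96% and 72.4% in induced mice, against 5.10%, 7.44% and 3.48% in control mice. The order of the induced mice was the same in both fractions, and no value of the groups came near the other. Means were 64.2% ± 9.01 in induced and 1.63% ± 0.49 in control mice among short fragments, and 61.8% ± 9.80 and 5.34% ± 1.99 among long fragments (SD, n = 3 each). The differences were 62.55 points (SE 4.91, limma adjusted p = 0.00109) and 56.50 points (SE 5.49, limma adjusted p = 0.00352). The related Cdk5r1, which encodes p35, had 5.82%, 12.9% and 7.93% in induced mice, against 2.65%, 4.12% and 0.81% in control mice, among short fragments (limma adjusted p = 0.118). In the long fraction Cdk5r1 had 12%, 20.7% and 11% in induced mice, against 12.3%, 0% and 9.33% in control mice, with overlap (limma adjusted p = 0.413).

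Cdk6, a partner of the D-type cyclins, rose slightly among long fragments. It had 3.73%, 4.91% and 7.92% in induced mice, against 0%, 0.02% and 0.03% in control mice, a difference of 5.50 points (SE 1.19, limma adjusted p = 0.0356). The call was lost without any one of control mice 1, 2 and 3, or induced mouse 2 (adjusted p = 0.125, 0.124, 0.124 and 0.0902). In the short fraction Cdk6 had 0%, 0.51% and 3.59% in induced mice, against 0.26%, 0% and 0% in control mice. Cdk10, a kinase that pairs with cyclin M, had 5.66%, 5% and 14.6% in induced mice, against 0.10%, 0.05% and 3.77% in control mice, among long fragments. Its groups did not overlap, but the difference of 7.12 points did not pass (limma adjusted p = 0.241). Cdk2ap1, which binds Cdk2 and restrains it, passed among short fragments with 0.58%, 0.35% and 0.58% in induced mice, against 0.01%, 0% and 0.15% in control mice. Its difference was 0.45 points (limma adjusted p = 0.0273). The call was lost without any one of control mice 1, 2 and 3, and also without induced mouse 1 or induced mouse 3 (adjusted p = 0.101, 0.104, 0.0544, 0.0711 and 0.0773). In the long fraction Cdk2ap1 had means of 0.0767% in induced and 0.0567% in control mice and did not pass (limma adjusted p = 0.911). Cdc2a, the mitotic kinase now called Cdk1, had 0.23%, 0.26% and 2.38% in induced mice, against 0.06%, 0% and 0.03% in control mice, among short fragments (limma adjusted p = 0.469), and passed without induced mouse 3 at a difference of 0.215 points (adjusted p = 0.0388). Cdk2 stayed at or under 1.39% in every library of both fractions.

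**Figure D3:**
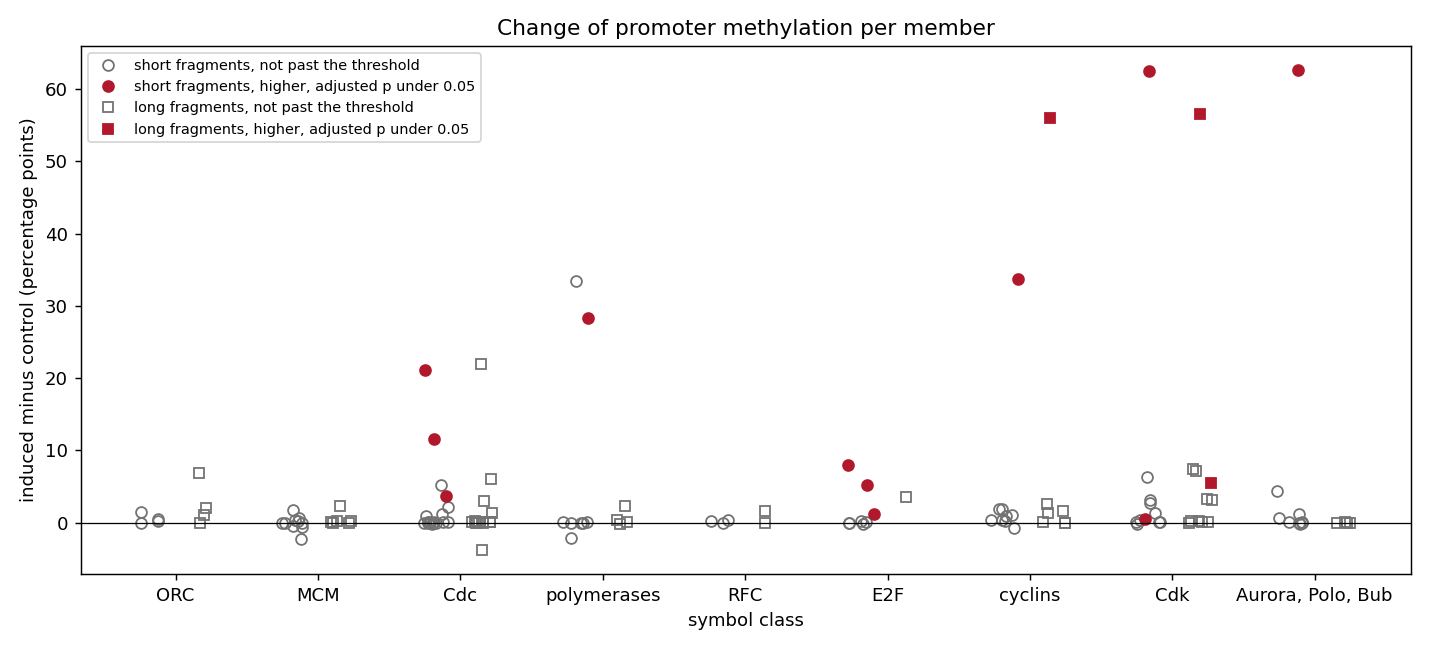
Difference in promoter methylation (y axis, induced minus control in percentage points) of each member by symbol class (x axis), for short (circles) and long (squares) fragments, filled where limma's adjusted p was under 0.05. Most members lie near 0, and the points above 50 are Plk5, Cdk5r2 in both fractions and Ccna1 among long fragments.

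Among regulators of mitosis Plk5 rose most, the only 1 to pass of 9 Aurora, Polo and Bub genes tested among short fragments. Over all genes of that fraction 27.6% rose. Plk5 is a Polo family member without an active kinase in mouse, known from brain rather than from dividing cells. It had 66.8%, 55.8% and 69.1% in induced mice, against 0.56%, 2.69% and 0.49% in control mice, with the groups far apart. The means were 63.9% ± 7.13 in induced and 1.25% ± 1.25 in control mice (SD, n = 3 each). The difference was 62.65 points (SE 3.94, limma adjusted p = 0.000636), and leaving out any 1 library kept the call. Plk1, the main mitotic Polo kinase, had 6.52%, 0.07% and 6.40% in induced mice, against 0% in each control mouse, and did not pass (limma adjusted p = 0.241). Without induced mouse 2 its difference of 6.46 points passed (adjusted p = 0.000102). Among long fragments Plk1 had 4.32%, 3.28% and 8.20% in induced mice, against 0% in both control libraries that listed it, and was not tested. Plk4, which governs centriole copying, stayed under 0.80% in every library. Aurka, Bub3 and Aurkaip1 stayed at or under 0.12% among short fragments, Aurkb at or under 0.16% among long fragments, and Bub1 at or under 1.20%, which passed without induced mouse 1 alone (limma adjusted p = 0.0142).

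Cdc20, which turns on the anaphase-promoting complex, had 17.9%, 7.99% and 11.7% in induced mice, against 0.52%, 2.42% and 0% in control mice, among short fragments. The difference was 11.55 points (SE 2.80, limma adjusted p = 0.0426). The call was lost without any one of control mice 1, 2 and 3, or induced mouse 3 (adjusted p = 0.142, 0.109, 0.146 and 0.111). Among long fragments Cdc20 had 10%, 0% and 8.18% in induced mice, against 0%, 0% and 0.18% in control mice, where induced mouse 2 was no higher than the controls (limma adjusted p = 0.286). Without that mouse the difference was 9.03 points (limma adjusted p = 0.0054). Of the members that encode subunits of that complex, Cdc16 and Cdc27 stayed at or under 0.60% in every library, and Cdc26 was at 0% in all 6 short-fragment libraries. Cdc25a, a phosphatase that releases CDKs from inhibition, was at 0% in all 6 short-fragment libraries, and Cdc34, a ubiquitin-conjugating enzyme of the G1 to S step, stayed at or under 0.34% there.

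Cdc14b, one of a pair of related phosphatases, was methylated in part in both fractions. Among short fragments it had 32.1%, 17.4% and 19.5% in induced mice, against 0.99%, 2.91% and 1.83% in control mice. In the long fraction it had 36.1%, 15.6% and 14.3% in induced mice, against 0.07%, 0% and 0% in control mice. Induced mouse 1 was highest both times and no group overlapped. The differences were 21.09 points (SE 4.36, limma adjusted p = 0.0251) and 22.00 points, which did not pass (SE 6.71, limma adjusted p = 0.0973). Without induced mouse 1 the long-fragment difference was 14.95 points (limma adjusted p = 0.000932). The short-fragment call was lost without any one of control mice 1, 2 and 3, or induced mouse 3 (adjusted p = 0.0987, 0.0862, 0.0942 and 0.0568). Its relative Cdc14a stayed at or under 0.36% among short fragments, and among long fragments at or under 0.50% in each library but that of control mouse 1, at 12.04%.

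**Figure D4:**
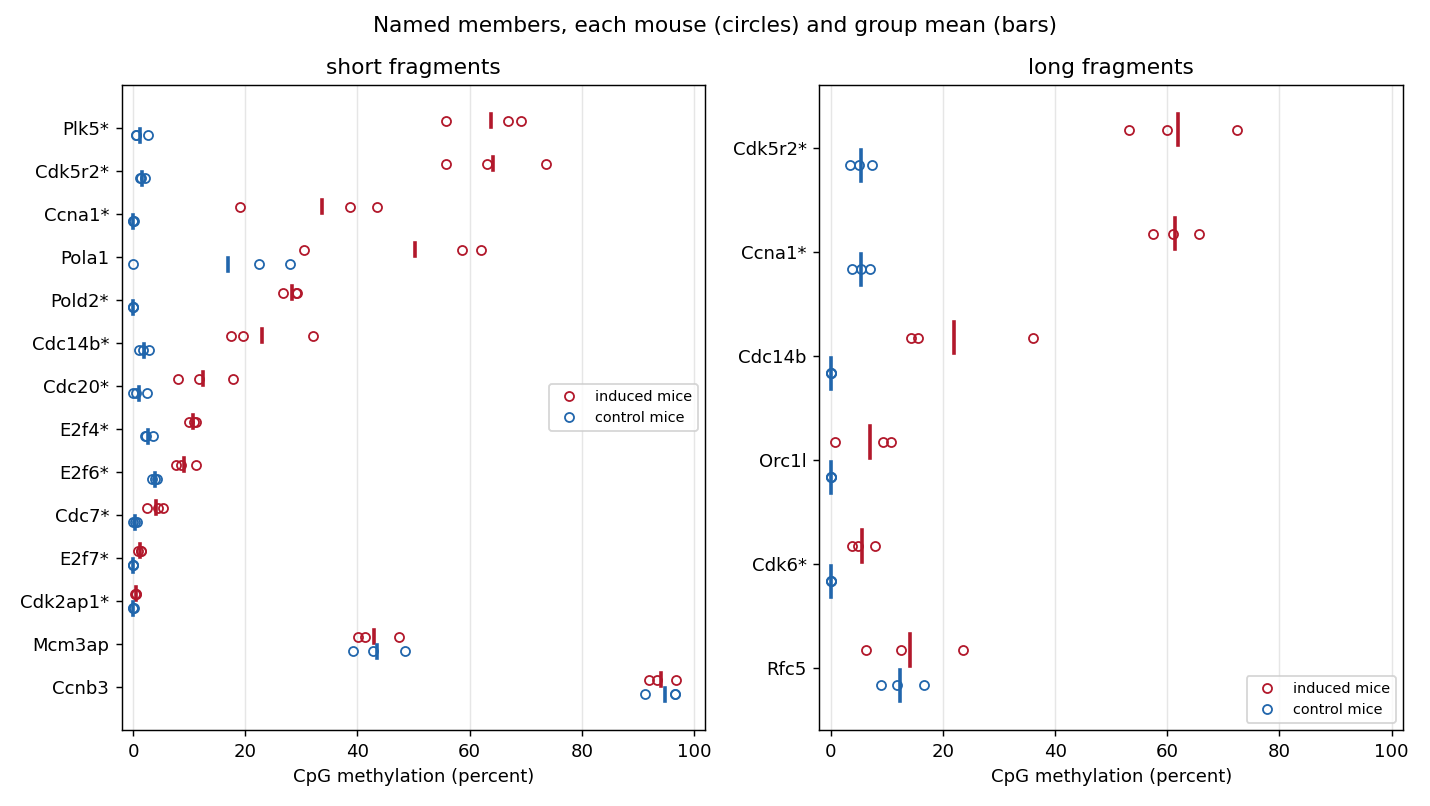
CpG methylation (x axis, percent) in each induced (red) and control (blue) mouse, as circles with the group mean as a bar, for members that passed, differed by 10 points, began at 20% or more, or led their class. A star marks an adjusted p under 0.05. Plk5, Cdk5r2 and Ccna1 stand apart from their controls, E2f7 and Cdk2ap1 pass with levels near 0, and Mcm3ap and Ccnb3 overlap.

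Several members that the symbol rule takes are not cell cycle genes. Mcm3ap, which encodes a protein of mRNA export, had 47.4%, 41.4% and 40.1% in induced mice, against 42.9%, 39.3% and 48.4% in control mice, among short fragments. This level near the middle of the scale did not differ beyond the spread of the mice (limma adjusted p = 0.947). Among long fragments Mcm3ap was at 6.14%, 0% and 0% in induced mice, against 0% in both control libraries that listed it. Cdc73, a subunit of the Paf1 transcription complex, Cdk9, a kinase of transcription elongation, and Cdc37l1, a relative of a chaperone partner, stayed at or under 0.40% in every library of both fractions. Cdc5l, a splicing factor, had at most 0.45% among short fragments and 3.64% among long fragments. Members not described so far were not all near 0. In the long fraction Cdk8 had 5.74%, 5.58% and 0% in induced mice, against 0%, 0.02% and 2.08% in control mice. It passed without induced mouse 3 (limma adjusted p = 0.0335). Cdc2l6 (now Cdk19) had 5%, 4.70% and 5.88% there, against 0.95%, 5.70% and 0%, and passed without control mouse 2 (limma adjusted p = 0.0223).

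The fractions were compared through the 43 members present in all 12 libraries, in 1 limma fit with mouse as a random block. None of these members changed by a different amount in short and long fragments past the threshold, where 4.71% of 5309 genes did. At an unadjusted p under 0.05 there were 5, with the smallest adjusted p of 0.157 at Ccna1, whose change among short minus that among long fragments was -22.26 points (SE 7.24). Without induced mouse 2 Ccna1, Ccna2 and E2f8 passed (limma adjusted p = 0.00799, 0.00381 and 0.0134), without induced mouse 1 Orc1l and Mcm5 (adjusted p = 4.75e-05 and 4.85e-05), and without induced mouse 3 Cdk6 (adjusted p = 0.00279). Levels of some genes differed between fractions in both groups of mice. Cdk5 had 0.08%, 0.17% and 0.05% in induced mice and 0%, 0.04% and 0% in control mice among short fragments, but 27.9%, 18.7% and 16.5% in induced mice and 16.2%, 21.3% and 15.9% in control mice among long fragments. Mcm8, a helicase of recombination, had 11.5%, 7.32% and 7.80% in induced mice and 15.2%, 8.23% and 10.05% in control mice among short fragments, and 0% in all 6 long-fragment libraries.

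**Figure D5:**
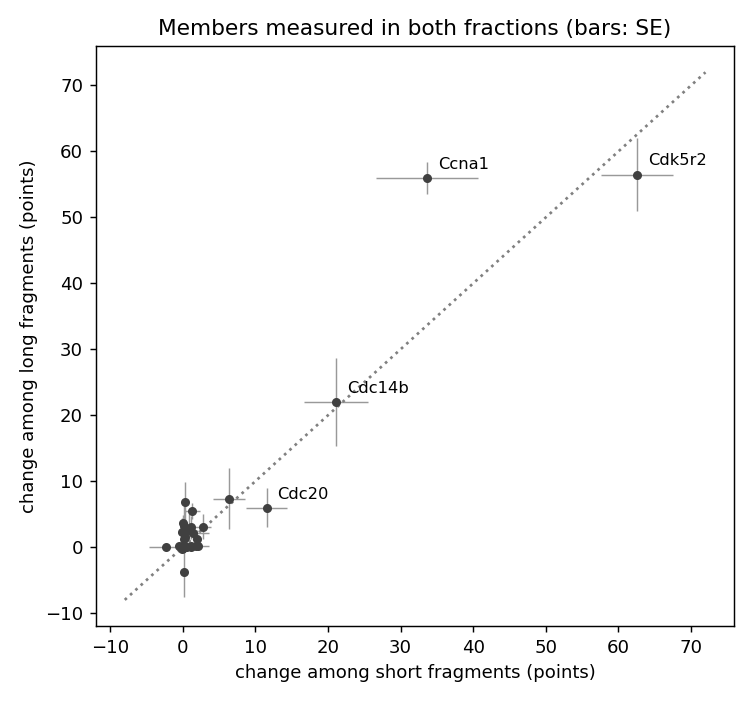
Change among long fragments (y axis) against change among short fragments (x axis), induced minus control in percentage points with limma standard errors, for the 43 members in all 12 libraries. Most members lie near 0 on both axes, Cdk5r2 and Cdc14b lie near the dotted line of equal change, and Ccna1 lies above it at 33.68 and 55.94 points.

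Sharing of a promoter region and sequence features were read as descriptions. For 13 members the values equalled those of a chromosomal neighbour in all 6 libraries of a fraction, among them Cdc45l with Ufd1l, Orc1l with Prpf38a, Mcm8 with Trmt6 and Aurka with Cstf1. Of the 95 members 80 matched a RefSeq window by gene ID, and 13 of these had several, of which the one with most CpGs was used for the counts here. For Mcm7 that window holds 26 CpGs, and the one printed above is the other. Over the short-fraction members the median was 31.5 CpGs in the 10 that rose and had a window (19 to 49). It was 24.5 in the 56 that did not pass (8 to 54), so the ranges overlapped. Over all genes of the fraction the order was the other way, with medians of 23 CpGs in those that rose and 25 in those that did not. CCGG, the MspI site, was in the window of 64 of 66 members and of 90.3% of all genes with a window. The E2F-type motifs TTTCCCGC and TTTGGCGC, searched on both strands, were in 19 of the 95 windows of these 80 members and in 1.57% of all 32851 windows. Of genes tested and with a window, 25.8% of members and 3.60% of all genes had a motif among short fragments. Among long fragments these shares were 20.9% and 3.54%. Of 17 members with the motif that were tested among short fragments E2f7 alone rose, and of 9 among long fragments none passed. Pola1, also with the motif, differed by 33.48 points among short fragments but did not pass. Of all genes tested with the motif, 52 of 287 rose among short and 21 of 170 among long fragments (limma). Of the windows printed above, those of Cdc25a and Mcm7 hold such a motif, and those of Cdk5r2, Ccna1, Plk5 and Cdc34 do not. The Mcm7 window was chosen for printing because it holds the motif, so its motif says nothing about the contrast.

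Other genes of the same machinery, taken from 8 lists of 136 names outside the symbol rule, were also mostly near 0. Of 107 tested among short fragments 4 rose (3.74%), where 27.6% of all genes did (limma). Of 64 among long fragments 2 rose (3.13%), where 23.2% of all genes did. Median differences were 0.03 and 0.14 points, with 0.50 and 0.94 points over all genes. No listed gene fell with limma, and at an unadjusted p under 0.05 there were 5 higher and 2 lower genes among short and 3 higher and 0 lower among long fragments. With limma none rose among replication factors (24 and 15 tested), nucleotide supply (4 and 2), other cyclins and CDK regulators (16 and 10), checkpoint genes (13 and 6) and mitotic chromosome and spindle genes (24 and 14).

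Of the CDK inhibitors 3 of 6 rose among short fragments, where 27.6% of all genes did, and 1 of 5 among long fragments, where 23.2% did. Cdkn2a, the locus of p16 and p19Arf, had 24.2%, 37.7% and 41.8% in induced mice, against 4.64%, 5.50% and 5.66% in control mice, among short fragments (limma adjusted p = 0.0132). In the long fraction it had 36.0%, 54.3% and 28.7% in induced mice, against 0%, 0.21% and 1.35% in control mice (limma adjusted p = 0.0223). Both comparisons were without overlap. Cdkn1c, an imprinted inhibitor, had 75.7%, 66.2% and 78.7% in induced mice, against 34.0%, 28.2% and 25.7% in control mice, and Cdkn2b, the p15 gene, 7.14%, 7.13% and 10.4%, against 0.41%, 0.48% and 0% in control mice, both among short fragments (limma adjusted p = 0.00193 and 0.0053). For long fragments Cdkn1c had 88.2%, 88.4% and 91.1% in induced mice, against 94.2%, 71.7% and 57.2% in control mice, with overlap (limma adjusted p = 0.471). Cdkn1a and Cdkn1b, the p21 and p27 genes, had induced means of 0.567% and 0.06% and control means of 0.15% and 0.0233% among short fragments and did not pass.

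Of the partners of E2F 1 of 9 rose among short fragments, where 27.6% of all genes did, and 0 of 6 among long fragments, where 23.2% did. At an unadjusted p under 0.05 there was 1 higher partner among long fragments. Mybl2, a transcription factor of late cell cycle genes, had 36.9%, 21.7% and 28.0% in induced mice, against 0%, 0% and 1.07% in control mice (limma adjusted p = 0.00776). In the long fraction it had 5.12%, 5.05% and 0.03% in induced mice, against 4.96%, 4.55% and 4.74% in control mice, and did not pass (limma adjusted p = 0.629). Rb1, the retinoblastoma gene that holds E2F in check, had means of 0.06% in induced and 0.15% in control mice among short fragments. Of the anaphase-promoting complex list none of 11 passed among short fragments, also at an unadjusted p under 0.05 (limma), where Anapc2 was at 29.1% in induced and 25.0% in control mice. Anapc7 alone rose, 1 of 6 among long fragments, with 8.28%, 9.05% and 10.6% in induced mice, against 0%, 1.95% and 1.28% in control mice (limma adjusted p = 0.00408). Mki67, the gene of the proliferation marker Ki-67, was at 0% in each induced mouse and at 0.28%, 0% and 0% in control mice among short fragments.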

How the data were processed

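Per the file headers, the authors deposited 1 table per library, with mean CpG methylation as a fraction for each gene and for each of its RefSeq promoters. Per the labels' protocols, MspI fragments were size-selected, ligated to methylated adapters, bisulfite-treated and PCR-amplified before sequencing (Genome Analyzer II). No source used here names the aligner, build, coverage filter or promoter window, and the tables hold no read counts, so no counting error can be given. A gene value was the mean of its listed promoters within 0.005 points.

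Deposited fractions were multiplied by 100. Genes in all 6 libraries of a fraction were compared between 3 induced and 3 control mice with limma 3.58.1 in R 4.3.3 (lmFit, eBayes), with Benjamini-Hochberg adjustment over all genes of the fraction. The fractions were compared by an interaction over 12 libraries, the mouse being a random block (consensus correlation 0.0674). The fit was first tested on simulated data. It recovered 54% of genes changed by 5 points in each fraction. Of those changed by 20 points it recovered 80% among short and 74% among long fragments. False calls were 14 of 10027 and 20 of 6127 genes. Small differences that did not pass may thus have been missed. Short and long libraries with the same group and number were taken as 1 mouse. Their deviations from the group means correlated at 0.198, 0.0559 and 0.394 for induced mice 1, 2 and 3. For control mice 1, 2 and 3 the correlations were 0.294, 0.613 and 0.29. The values thus gave little backing to this pairing for induced mouse 2. No pair of libraries of a fraction shared more than 2.52% of values above 0, so each was counted once. All members had an entry among RefSeq genes of GRCm38.p6, used for names, chromosomes and neighbours. Figures used Python 3.11.15 and matplotlib 3.10.9.

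Members and lists were chosen with earlier results of these data known. Genes named by rule were those past the threshold, those at least 10 points apart, those at 20% or more in control mice and the highest of each class. The rule also took members whose products are not of the cell cycle, of which only examples are given. Alternatives were an arcsine square root scale, a variance trend, other filters, single promoters, a replicate block, 1 fit over both fractions and leaving out each library. Others named as examples of their class, such as Orc2l, Cdc6 or Cdk5r1, were chosen after their values were seen.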

Additional observations from a re-analysis of the deposited data

Results flagged for a closer look

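Members that some libraries of a fraction do not list were left out of its tests, and 3 of them had induced means over 10% that were above every control library listing them. Cdk4, a kinase of the D-type cyclins, had 19.2% and 22.1% in induced mice 2 and 3, against 7.31%, 7.58% and 6.09% in control mice, among short fragments, with an induced mean of 20.7%. Plk5 had 70.1%, 68.3% and 73.3% in induced mice among long fragments, a mean of 70.6%, against 4.29% and 6.67% in control mice 1 and 3, beside the rise that passed among short fragments. With genes admitted from 2 libraries a group, Cdk4 and Plk5 passed there (limma adjusted p = 0.00383 and 0.00115). Pole2, the second subunit of polymerase epsilon, had 12.2% and 15.5% in induced mice 2 and 3 among short fragments, a mean of 13.9%, against 0% in the only control library that listed it. It was tested among long fragments and did not pass (limma adjusted p = 0.6225). There it had 0%, 0% and 1.13% in induced mice, against 0%, 0% and 0.19% in control mice.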

How the results depend on the processing

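The deposited levels carry no coverage, so no minimum could be varied, and the limits are 3 mice a group and the unknown depth. Of the members that rose, Cdk5r2, E2f4, E2f7, Plk5 and Pold2 among short and Ccna1 and Cdk5r2 among long fragments passed whichever library was left out. Leaving out 1 library gave 5 to 13 higher members among short and 2 to 7 among long fragments, 2227 to 3029 and 885 to 1528 genes called in all, and 0 to 3 members whose change differed between fractions; no member was then lower. With the replicate number as a replicate block, 5 members were higher among short fragments and 652 genes were called among long fragments. Same-numbered induced and control mice had correlations of their deviations from -0.0498 to 0.0736, so the number was not taken to pair them. In the single fit over both fractions 5 of 43 members were higher among short fragments, the number that the fit per fraction called among these 43, and 6 among long fragments, with 1575 genes called in the short fraction. Those 6 were Cdk5r2, Ccna1, Cdk6, Cdc14b, E2f8 and Orc1l. One member, Mcm4, was lower among short fragments on the arcsine square root scale (limma adjusted p = 0.00784) and with a variance trend (limma adjusted p = 0.0491), and the cause was not tested. Cdk9 was higher under both (adjusted p = 0.0444 and 0.0433). Without genes under 1% Pola1 and, among long fragments, Cdc14b passed (limma adjusted p = 0.0461 and 0.027) and Cdc7 and Cdk6 did not. This filter used the mean over induced and control libraries together. Cdc14b, with a control mean of 0.0233%, was kept only through its induced values, so its call there adds no support. Differences near 0 changed sign when a library was left out. Ccnb3 ranged from -2.56 to 0.27 points, Mcm3ap from -2.78 to 1.89 and Rfc5 from -3.07 to 5.57. Ccnb3 was at 0.075, 0.145 and 0.27 points without control mouse 2 or 3 or induced mouse 1. Mcm3ap was at 1.89, 0.195 and 0.875 points without control mouse 3 or induced mouse 2 or 3, and Rfc5 at -0.128 and -3.07 points without control mouse 1 or induced mouse 1. For 20 named results, each a gene in a fraction, 192 of 248 alternative values kept both direction and side of the threshold.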

Other observations

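Cdc6 was the only member whose listed promoters differed in value. In short-fragment libraries one of its promoters was at 0% in all 6 mice, and the other at 14.3%, 11.8% and 14.3% in induced mice, against 9.52%, 0% and 0% in control mice. Among long fragments only that second promoter was listed, in control mouse 1 at 83.5% and in control mouse 2 at 34.2%, and in no induced library, so no comparison could be made there. Orc3l was likewise listed among long fragments in control mice alone, at 0.57%, 0% and 0%. Tk1, the thymidine kinase gene of the nucleotide supply list, had means of 11.9% in induced and 0.29% in control mice among short fragments and did not pass (limma adjusted p = 0.152).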
